A study of Mus musculus with 10 samples.

Results

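The proteasome is the protease that degrades ubiquitin-tagged proteins in the cytosol and nucleus. Its core particle is a barrel of outer alpha rings and inner beta rings, with the catalytic subunits in the beta rings, and a regulatory particle made of a base and a lid sits on its end, binds the substrate, removes the ubiquitin and feeds the unfolded chain into the barrel. Activators can take the place of the regulatory particle, assembly chaperones build both particles and do not stay in them, and under interferon the catalytic beta subunits are exchanged for immunoproteasome subunits, which in endothelium as in other tissues supply peptides to MHC class I. Genes of the constitutive proteasome were taken as all those whose symbol begins with Psma, Psmb, Psmc, Psmd, Psme, Psmf or Psmg, leaving out the immunoproteasome genes Psmb8, Psmb9 and Psmb10, with a probe detected (detection p below 0.05) on at least 2 arrays. Of 48 such symbols on the array, 42 met the rule, among 16144 genes tested.

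The 10 Illumina beadchip arrays carried RNA from lung endothelial cells, the lining of the vessels, obtained by flow sorting at postnatal day 6 from mice of strain C57/Bl6. Evi-iECKO mice (2 arrays) carried floxed Evi, the gene also called Wls, whose product escorts Wnt ligands out of the cell, together with Cdh5CreERT2, and Evi-WT mice (3 arrays) had the same floxed gene without that Cre. Rspo3-iECKO mice (3 arrays) carried floxed Rspo3, which encodes a secreted amplifier of Wnt signals, together with Cdh5CreERT2, and Rspo3-WT mice (2 arrays) again lacked the Cre. This recombinase is driven by an endothelial promoter and works only after tamoxifen, so recombination is meant for endothelial cells, and the controls share the floxed allele but not the Cre. The labels leave unsaid whether a sample came from 1 animal or several, and the p-values below cover only the spread from sample to sample.

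Arrays of the Evi/Wls line detected 46.5% to 48.6% of probes and those of the Rspo3 line 49.8% to 51.3%, without overlap, and mean intensities were 116 to 134 and 136 to 161. The sources used here do not say whether the lines were hybridised together, so line and any batch cannot be told apart. Wls had log2 levels of 4.85 and 4.68 in Evi-iECKO, against 5.68, 6.21 and 5.69 in Evi-WT (difference -1.10, SE 0.27), while no Rspo3 probe passed the filter, so Rspo3 checks no label. All 14 endothelial markers were measured, Cdh5 among them at 8.81 to 9.74, although the brightest Erg probe was detected on no array of the Evi/Wls line.

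Levels are given throughout as normalized log2 intensity of the brightest probe of a gene, differences as log2 differences from limma's moderated test, and adjusted p-values as Benjamini-Hochberg values over all 16144 genes. A difference of 1 is a 2-fold change. Since each probe has its own brightness, levels of different genes are not set against each other. In sorted cells, fewer cells of a type and less RNA per cell cannot be told apart.

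Constitutive proteasome genes were broadly detected. The brightest probe was detected on all 10 arrays for 37 of the 42 genes (88.1%), against 49.9% of all genes tested. The exceptions by that probe were Psmd11 and Psme2 on 9 arrays, Psmg4 on 8, Psmd2 on 5 and Psmc3ip on 4. The 42 genes comprised 5 alpha ring genes, 6 beta ring genes, 6 base ATPases, 3 other base genes, 8 lid genes, 5 activators and inhibitors and 7 assembly chaperones. The other 2, Psmc3ip and Psme3ip1, share the symbol's stem without being subunits: Psmc3ip encodes a factor of meiotic recombination and Psme3ip1 a binding partner of the activator Psme3.

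The 6 symbols that failed the filter were Psma1 and Psma3 of the alpha ring, Psmb5, the chymotrypsin-like catalytic subunit, Psmb11, its counterpart in the thymus, Psma8, an alpha subunit of the testis, and Psme2b, a copy of Psme2. Psma8 and Psme2b were detected on 1 array each and the other 4 on none. Psma1, Psma3 and Psmb5 belong to every standard core particle, and their probes had no value above background here.

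**Figure D1:**
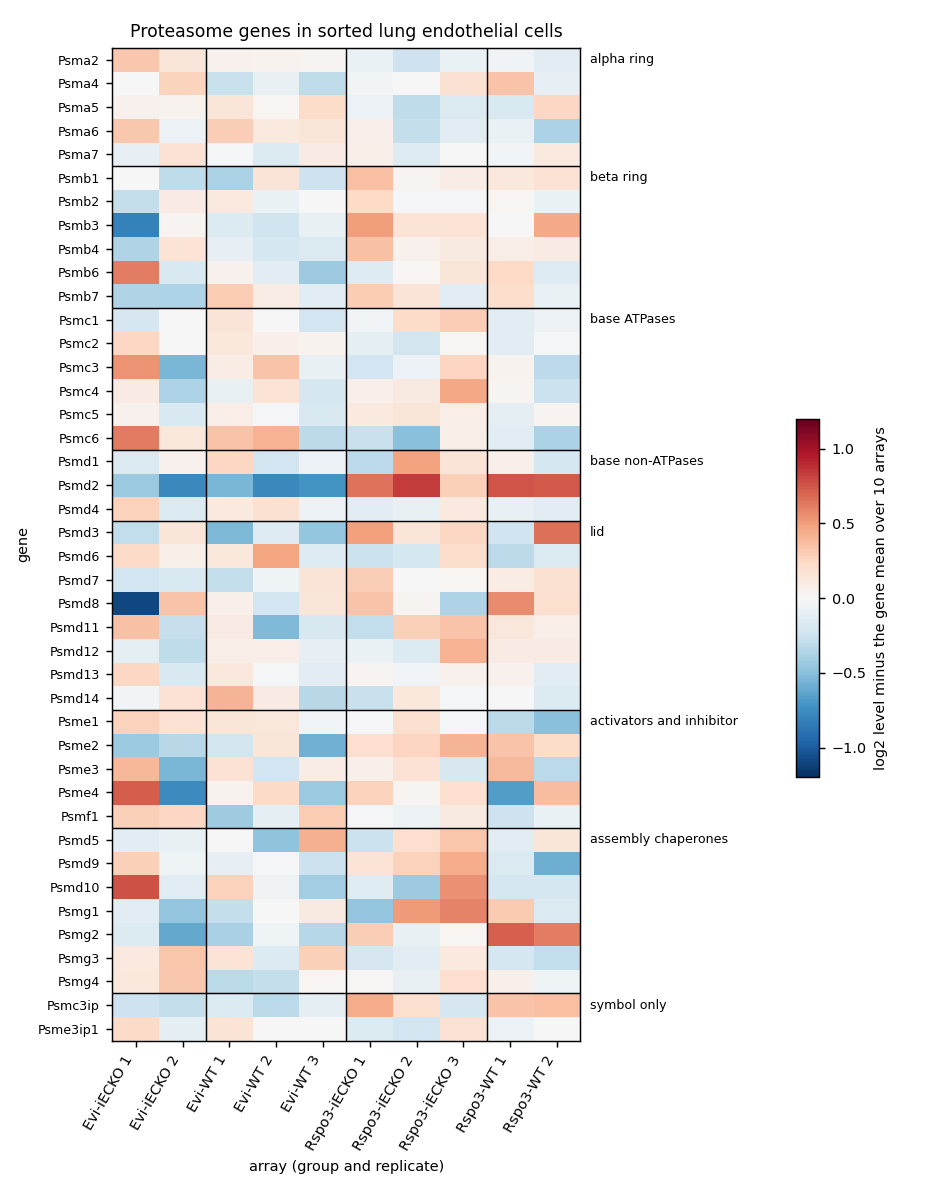
Log2 level of the 42 constitutive proteasome genes (rows, by role) on each of the 10 arrays (columns, by group), as the deviation from the gene's mean over the arrays (colour, log2). Blocks of colour follow the line for Psmd2, lower on all 5 arrays of the Evi/Wls line, and single cells such as Psmd8 in Evi-iECKO replicate 1 stand alone.

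Neither deletion moved a constitutive proteasome gene past the threshold. Limma called 0 of 42 genes at an adjusted p below 0.05 for the Evi/Wls deletion and 0 of 42 for the Rspo3 deletion, and it called 0 of 16144 genes tested in either (0% of all genes). At an unadjusted p below 0.05, 1 gene was higher and 1 lower after the Evi/Wls deletion (4.76% of 42), against 7.99% of all genes (4.47% higher and 3.52% lower). After the Rspo3 deletion 2 were higher and 1 lower (7.14%), against 4.35% of all genes (2.35% higher and 2.01% lower). Both shares of the proteasome genes were near those of the whole array.

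The members' median difference was 0.0023 for the Evi/Wls deletion and 0.05 for the Rspo3 deletion, beside 0.0090 and -0.0076 over all genes. Of the 42 genes 21 (50%) were above zero in the first and 28 (66.7%) in the second, beside 51.4% and 48.5% of all genes. The 95% interval of the difference lay within 2-fold in either direction for 40 genes after the Evi/Wls deletion and for 38 after the Rspo3 deletion. Among all genes that held for 88.5% and 91.9%. Leaving out 1 array gave medians of -0.073 (without Evi-iECKO replicate 1) to 0.12 (without Evi-iECKO replicate 2) for the Evi/Wls deletion, and its sign changed under 8 of 12 processing alternatives. For the Rspo3 deletion they were 0.0028 (without Rspo3-WT replicate 2) to 0.09 (without Rspo3-WT replicate 1).

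Those Evi-iECKO arrays also differed in other cell types. The summed linear level of 11 measured alveolar type 2 markers was 459 in replicate 1 and 2231 in replicate 2, against 493 to 729 in Evi-WT, and for 8 of 11 leukocyte markers it was 221 to 499 in Evi-iECKO, against 227 to 266 in Evi-WT. In the Rspo3 line the alveolar sum was 642 to 914 in Rspo3-iECKO, against 651 to 939 in Rspo3-WT. None of the alveolar markers measured was undetected throughout a group, while the brightest probe of the leukocyte marker Cd3e was undetected on every array of the Evi/Wls line. Their part in the proteasome values was not tested.

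**Figure D2:**
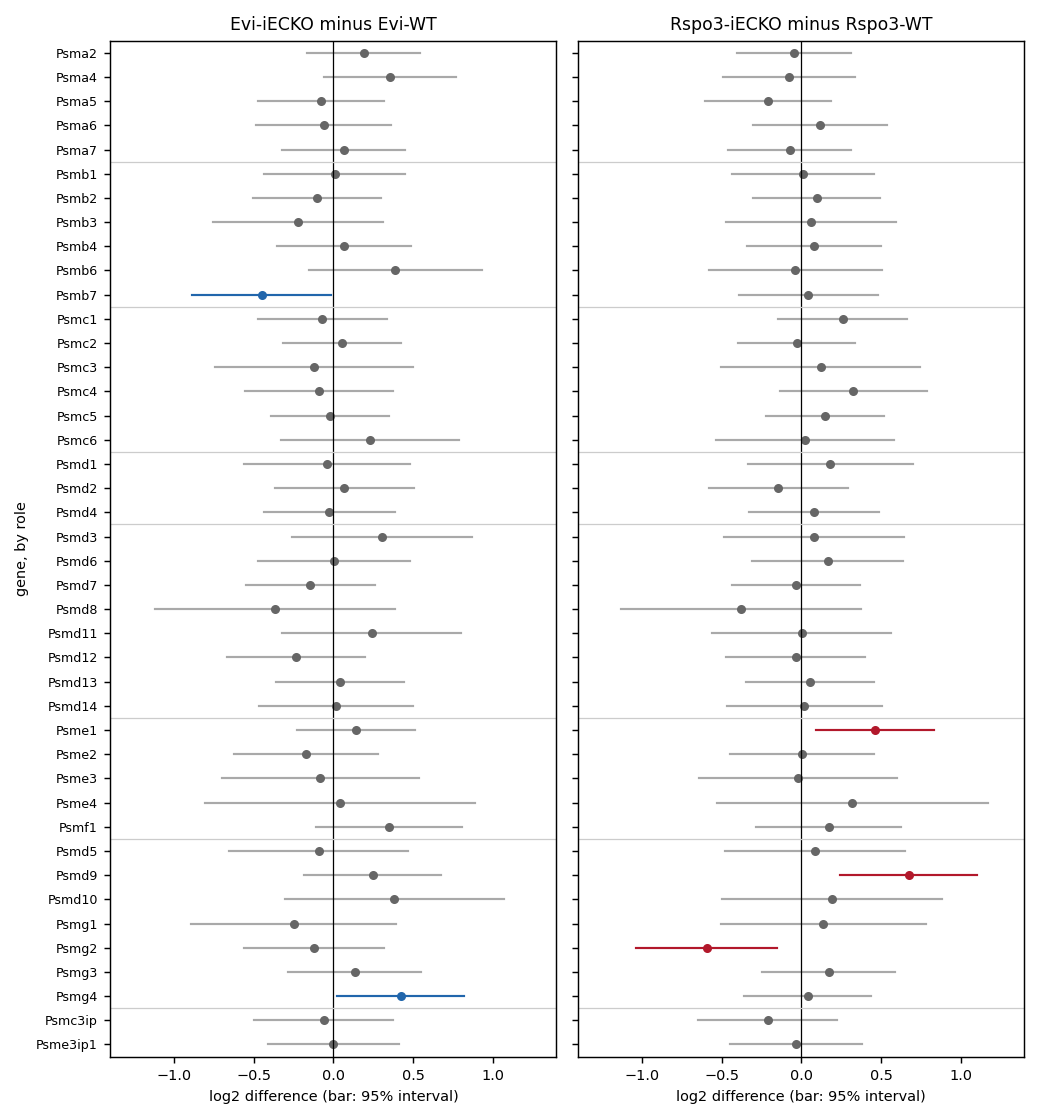
Log2 difference of each of the 42 genes (points, by role) with its 95% interval (bars), for Evi-iECKO minus Evi-WT on the left and Rspo3-iECKO minus Rspo3-WT on the right. Coloured points have an unadjusted p below 0.05 (Psmb7 and Psmg4 on the left; Psme1, Psmd9 and Psmg2 on the right), and none passes adjustment.

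In the core particle the alpha ring genes, which form the gated entrance, had a median difference of 0.06 in Evi-iECKO against Evi-WT and -0.07 in Rspo3-iECKO against Rspo3-WT, and median scaling of the arrays turned these to -0.01 and 0.21. They ranged in the first from -0.08 (Psma5) to 0.36 (Psma4) and in the second from -0.21 (Psma5) to 0.12 (Psma6). Psma4 read 7.69 and 7.95 in Evi-iECKO, against 7.42, 7.60 and 7.38 in Evi-WT. Those groups did not overlap, yet the difference missed the threshold (SE 0.19, limma adjusted p = 0.701).

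Among beta ring genes Psmb6, the caspase-like catalytic subunit, read 7.48 and 6.68 in Evi-iECKO, against 6.92, 6.73 and 6.43 in Evi-WT. In the Rspo3 line Psmb6 read 6.71, 6.89 and 7.01 in Rspo3-iECKO, against 7.11 and 6.71 in Rspo3-WT. The groups overlapped in both lines, with differences of 0.39 (SE 0.25) and -0.04 (SE 0.25). The wide gap within Evi-iECKO comes from replicate 1.

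Psmb7, the trypsin-like catalytic subunit, had the lowest beta ring value of the Evi/Wls deletion. It read 7.98 and 7.97 in Evi-iECKO, against 8.65, 8.43 and 8.21 in Evi-WT, and the groups did not overlap. The difference was -0.45 (SE 0.20, unadjusted p = 0.0438, limma adjusted p = 0.5998). In the Rspo3 line it read 8.65, 8.50 and 8.21 in Rspo3-iECKO, against 8.55 and 8.26 in Rspo3-WT, with a difference of 0.04 (SE 0.20). The other 3 Psmb7 probes gave 0.34, 0.26 and 0.50 for the Evi/Wls deletion, opposite to the brightest one, and the mean of all its probes gave 0.16. The remaining beta ring genes, Psmb1 to Psmb4, lay between -0.22 and 0.07 in the Evi/Wls deletion and between 0.01 and 0.10 in the Rspo3 deletion.

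The base of the regulatory particle holds the ATPase ring, Psmc1 to Psmc6, that unfolds substrates. The median of these genes was -0.04 for the Evi/Wls deletion, from -0.12 (Psmc3) to 0.23 (Psmc6), and 0.13 for the Rspo3 deletion, from -0.03 (Psmc2) to 0.33 (Psmc4). Psmc4 read 7.19, 7.24 and 7.59 in Rspo3-iECKO, against 7.16 and 6.87 in Rspo3-WT. The groups were apart by a small margin and the test did not pass (SE 0.21, limma adjusted p = 0.9995). In the Evi/Wls line Psmc4 read 7.23 and 6.76 in Evi-iECKO, against 7.04, 7.29 and 6.93 in Evi-WT, which overlapped.

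Of the base genes that are no ATPases, Psmd4, a receptor for ubiquitin chains, differed by -0.03 in the Evi/Wls deletion and 0.08 in the Rspo3 deletion, and the scaffold subunit Psmd1 by -0.04 and 0.18. The brightest probe of Psmd2, the other large scaffold, was detected on all 5 arrays of the Rspo3 line and on none of the Evi/Wls line, and a second probe on all 5 and on 2. Psmd2 read 5.58, 5.77 and 5.21 in Rspo3-iECKO, against 5.68 and 5.66 in Rspo3-WT, which overlapped (difference -0.15, SE 0.20). The second Psmd2 probe gave 0.49 (SE 0.28) and the mean of both probes 0.17, so the direction rests on the probe.

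The 8 lid genes, whose products include the deubiquitinase Psmd14, had a median difference of 0.01 in each deletion (-0.07 and 0.28 in the Evi/Wls and Rspo3 deletions with median scaling). Psmd8 was the lowest of them in both, at -0.37 (SE 0.35) in the Evi/Wls deletion and -0.38 (SE 0.35) in the Rspo3 deletion. It read 6.26 and 7.70 in Evi-iECKO, against 7.42, 7.13 and 7.50 in Evi-WT, and 7.70, 7.39 and 6.99 in Rspo3-iECKO, against 7.92 and 7.55 in Rspo3-WT. Both pairs of groups overlapped, and the first difference comes from 1 array of 2. A second Psmd8 probe gave -0.39 in the Evi/Wls deletion but 0.18 in the Rspo3 deletion. In Evi-iECKO this second probe read 6.01 in replicate 1 and 5.35 in replicate 2, so its lower array was the other one. Psmd12 read 6.74 and 6.55 in Evi-iECKO, against 6.93, 6.94 and 6.76 in Evi-WT, a gap of the groups with a difference of -0.23 (SE 0.20, limma adjusted p = 0.838). The brightest Psmd3 probe gave 0.31 (SE 0.26) in the Evi/Wls deletion. A second Psmd3 probe read 4.85 and 4.89 in Evi-iECKO, against 5.42, 5.89 and 6.11 in Evi-WT, and gave -0.94 (SE 0.21, unadjusted p = 0.000767, limma adjusted p = 0.279 over all probes). The probes of Psmd3 thus had opposite signs, and their mean was -0.32.

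Psme1 and Psme2 encode the partner subunits of the interferon-inducible activator, and Psme3 and Psme4 separate activators of the nucleus. Psme1 read 8.62 and 8.52 in Evi-iECKO, against 8.49, 8.48 and 8.31 in Evi-WT, and 8.32, 8.54 and 8.32 in Rspo3-iECKO, against 8.02 and 7.84 in Rspo3-WT. Every deleted array was above every control array of its own line. The difference was 0.14 (SE 0.17) for the Evi/Wls deletion and 0.46 (SE 0.17, unadjusted p = 0.0178, limma adjusted p = 0.9995) for the Rspo3 deletion. A second Psme1 probe gave 0.42 for the Rspo3 deletion but -0.39 for the Evi/Wls deletion, so the Evi/Wls direction rests on the probe.

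Psme2, its partner, read 4.50 and 4.61 in Evi-iECKO, against 4.73, 5.09 and 4.37 in Evi-WT, and 5.15, 5.20 and 5.35 in Rspo3-iECKO, against 5.29 and 5.17 in Rspo3-WT. The groups overlapped in both lines, with differences of -0.17 (SE 0.21) and 0.01 (SE 0.21). Psme3 differed by -0.08 (SE 0.29) and -0.02 (SE 0.29), and Psme4 by 0.04 (SE 0.39) and 0.32 (SE 0.39). Psme4 ranged from 5.49 to 6.98 within Evi-iECKO and from 5.58 to 6.62 within Rspo3-WT, and its second probe gave -0.30 and -0.13. Psmf1, which encodes an inhibitor of the core particle, read 6.22 and 6.18 in Evi-iECKO, against 5.50, 5.82 and 6.23 in Evi-WT, and 5.91, 5.87 and 6.04 in Rspo3-iECKO, against 5.68 and 5.85 in Rspo3-WT. Only the groups of the Rspo3 line were apart, and the differences were 0.35 (SE 0.21) and 0.17 (SE 0.21).

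Assembly chaperones held the members with the smallest p for the Rspo3 deletion. Psmd9, a chaperone of the base, read 6.57, 6.69 and 6.86 in Rspo3-iECKO, against 6.24 and 5.82 in Rspo3-WT. The groups did not overlap and the difference was 0.68 (SE 0.20, unadjusted p = 0.00492, limma adjusted p = 0.996). In the Evi/Wls line Psmd9 read 6.70 and 6.36 in Evi-iECKO, against 6.31, 6.40 and 6.15 in Evi-WT, which overlapped (0.25, SE 0.20). A dimmer Psmd9 probe, detected on 4 arrays, gave -0.05 for the Rspo3 deletion. Of the 25 genes with several probes past the filter, 17 had probes of opposite sign in the Evi/Wls deletion and 11 in the Rspo3 deletion.

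Psmg2, which pairs with Psmg1 to start the alpha ring, had a difference of the opposite sign. It read 6.35, 5.96 and 6.08 in Rspo3-iECKO, against 6.77 and 6.67 in Rspo3-WT, and the groups did not overlap (-0.60, SE 0.20, unadjusted p = 0.0120, limma adjusted p = 0.9995). In the Evi/Wls line it read 5.89 and 5.44 in Evi-iECKO, against 5.66, 6.00 and 5.71 in Evi-WT, which overlapped (-0.12, SE 0.20). A second Psmg2 probe gave -0.26 and -0.22 in the Rspo3 and Evi/Wls deletions. Its partner Psmg1 differed by 0.14 in the Rspo3 deletion and -0.25 in the Evi/Wls deletion.

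Psmg4, of the second pair of alpha ring chaperones, read 4.65 and 4.85 in Evi-iECKO, against 4.20, 4.24 and 4.55 in Evi-WT. The groups were apart (0.42, SE 0.18, unadjusted p = 0.0394, limma adjusted p = 0.587), although Psmg4 was detected on only 1 of the 3 Evi-WT arrays. In the Rspo3 line the difference was 0.04 (SE 0.18). Its partner Psmg3 differed by 0.13 and 0.17 in the Evi/Wls and Rspo3 deletions.

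**Figure D3:**
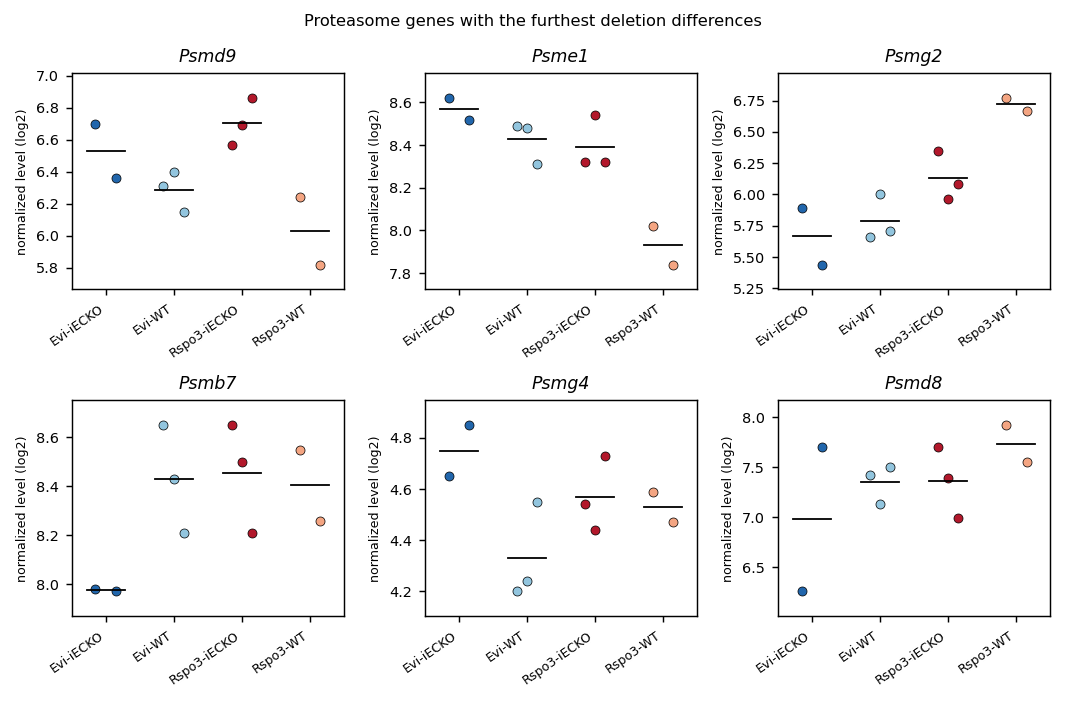
Normalized log2 level of 6 proteasome genes on each array (points) with the group mean (bar), for Evi-iECKO, Evi-WT, Rspo3-iECKO and Rspo3-WT from left to right; each panel has its own axis range. In the Rspo3 line Psmd9 and Psme1 are higher and Psmg2 lower on all Rspo3-iECKO arrays than on any Rspo3-WT array.

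Groups without overlap were also common elsewhere on the array. In the Evi/Wls line 4 of 42 genes lay higher on every Evi-iECKO array than on any Evi-WT array and 2 lay lower, beside 10.8% and 9.2% of all genes. In the Rspo3 line 7 lay higher on every Rspo3-iECKO array than on any Rspo3-WT array (Psmc1, Psmc4, Psmc5, Psme1, Psmf1, Psmd9 and Psmg3) and 1 lower (Psmg2), beside 10.8% and 11.9%. The lowest Rspo3-iECKO value was close to the highest Rspo3-WT value for Psmg3 (5.30 and 5.29) and Psmf1 (5.87 and 5.85). So it was for Psmc1 and Psmc4 (7.19 and 7.16 in both) and Psmc5 (7.90 and 7.86). A second Psmc5 probe gave -0.20. Psmd9 (6.57 and 6.24) and Psme1 (8.32 and 8.02) were further apart. Psme1 was the 1 gene higher in both lines (1.4% of all genes were), and none was lower in both (1.08%). In the Evi/Wls line its lowest Evi-iECKO value was close to its highest Evi-WT value (8.52 and 8.49). There the second Psme1 probe gave -0.39 and the mean of its probes -0.12, so this rests on the probe.

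Averaged over both lines, the deletions again gave 0 of 42 genes at a limma adjusted p below 0.05 (0% of all genes) and 3 at an unadjusted p below 0.05 (7.14%), 2 higher and 1 lower, against 5.82% of all genes (3.21% higher and 2.6% lower). These were Psmd9 at 0.46 (SE 0.14, limma adjusted p = 0.644), Psme1 at 0.30 (SE 0.12, limma adjusted p = 0.822) and Psmg2 at -0.36 (SE 0.14, limma adjusted p = 0.823). The median over the members was 0.03 and the interval lay within 2-fold for all 42 genes, against 98.6% of all genes. The base ATPases had a median of 0.08, with 5 of 6 above zero, and the beta ring 0.0025 with 3 of 6. The alpha ring had 0.03 with 3 of 5, and the lid 0.03 with 5 of 8. With the mean of all probes these were, in the same order, 0.05 with 3 of 6, 0.06 with 5 of 6, 0.03 with 3 of 5 and -0.005 with 4 of 8. The order of the roles thus rests on the probe summary. Median scaling gave 0.19, 0.11, 0.10 and 0.12.

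The 2 deletions were also set against each other, as the Evi/Wls difference minus the Rspo3 difference. No proteasome gene passed in limma, at an adjusted p below 0.05 (0% of all genes) or at an unadjusted one (0 of 42, against 6.06% of all genes). The furthest were Psmb7 at -0.49 (SE 0.28), Psmg2 at 0.47 (SE 0.29), Psma4 at 0.43 (SE 0.27) and Psmd9 at -0.43 (SE 0.28). The interval lay within 2-fold for 28 of 42 genes. For the other genes these arrays do not bound the difference between the deletions to 2-fold.

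Immunoproteasome genes, left out of the 42, had positive differences in each deletion. Psmb9, which takes the place of Psmb6, read 7.71 and 7.31 in Evi-iECKO, against 7.32, 6.62 and 6.52 in Evi-WT, and 7.97, 7.78 and 7.21 in Rspo3-iECKO, against 6.81 and 6.60 in Rspo3-WT. Its groups overlapped in the Evi/Wls line and were apart in the Rspo3 line. The difference was 0.69 (SE 0.28) and 0.95 (SE 0.28), and over both lines 0.82 (SE 0.20, unadjusted p = 0.00121, limma adjusted p = 0.406). Psmb10, which takes the place of Psmb7, gave 0.59 (SE 0.22), 0.22 (SE 0.22) and 0.40 (SE 0.15) in the same order, and Psmb8, the counterpart of Psmb5, 0.11, 0.46 and 0.28.

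The ratio of partner subunits within each array was therefore compared between the groups. These 3 ratios were chosen after values were seen. The log2 ratio of Psmb9 to Psmb6 was 0.23 and 0.63 in Evi-iECKO, against 0.40, -0.11 and 0.09 in Evi-WT, and 1.26, 0.89 and 0.20 in Rspo3-iECKO, against -0.30 and -0.11 in Rspo3-WT. The groups overlapped in the Evi/Wls line and were apart in the Rspo3 line, and the mean difference over both lines was 0.64 (exact two-sided permutation of the deletion labels within lines, p = 0.06).

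The log2 ratio of Psmb10 to Psmb7 was 0.58 and 0.22 in Evi-iECKO, against -0.61, -0.48 and -0.81 in Evi-WT, and -0.39, -0.34 and 0.12 in Rspo3-iECKO, against -0.60 and -0.16 in Rspo3-WT. The Evi/Wls groups were far apart and the Rspo3 groups overlapped. The mean difference was 0.61 (exact permutation p = 0.04), but with the mean of all probes of each gene it was 0.27. That of Psme1 to Psme2 differed by 0.31 in the Evi/Wls line and 0.46 in the Rspo3 line, with a mean of 0.39 (exact permutation p = 0.03). With the mean of all probes it was 0.24, from 0.05 in the Evi/Wls line and 0.44 in the Rspo3 line. After Benjamini-Hochberg adjustment of the permutation p-values over the 3 ratios each had p = 0.06, so none passed, and the smallest p that the 100 arrangements allow is 0.01. The ratios were chosen from the same arrays after values were seen, and the adjustment does not cover that choice. The permutation p-values of all 3 ratios are therefore a description and not a test.

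**Figure D4:**
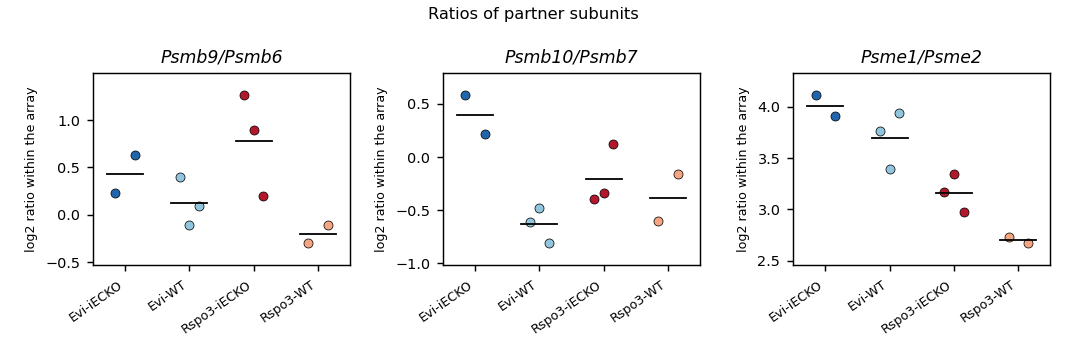
Log2 ratio within each array (points) and its group mean (bar) of Psmb9 to Psmb6, Psmb10 to Psmb7 and Psme1 to Psme2, for Evi-iECKO, Evi-WT, Rspo3-iECKO and Rspo3-WT from left to right. Each deleted group has the higher mean in its line, and the groups are apart for Psmb10 to Psmb7 in the Evi/Wls line and for Psmb9 to Psmb6 and Psme1 to Psme2 in the Rspo3 line; only the position of a ratio between groups carries information, not its height.

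Interferon-response genes had differences of the same sign as Psmb9 on these arrays. Of 16 measured genes of that list, 14 had positive differences over both lines and 13 had an unadjusted p below 0.05, with a median of 0.75 (5.82% of all genes had such a p, and 3.21% of all genes with a higher level), and none passed at a limma adjusted p below 0.05. Of this list, Isg15 was detected on Rspo3-iECKO arrays only, so its positive difference was fixed by the filter. Irf7 and Bst2 were undetected throughout Rspo3-WT and Evi-iECKO. Oasl2, an antiviral protein, gave 1.25 (SE 0.17) and Usp18, which removes the ubiquitin-like Isg15, gave 1.65 (SE 0.26). Of the 9 immunoproteasome and MHC class I loading genes 5 had an unadjusted p below 0.05, all higher (3.21% of all genes were), with a median of 0.40. Nlrc5, a transcription factor of MHC class I genes, gave 1.45 (SE 0.24) and B2m, its light chain, 0.43 (SE 0.16). The members' median of 0.03 stands beside these values.

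Of 11 other measured proteasome components and partners, such as the core assembly factor Pomp and the deubiquitinase Usp14, 0 passed an unadjusted p below 0.05 for either deletion or their mean, and their median over both lines was 0.03. Of 9 measured regulators of proteasome gene transcription, Nfe2l1, the factor that induces proteasome genes when activity falls, gave 0.06 (SE 0.14). Maff, a small partner of such factors, gave 0.61 (SE 0.28) in the Evi/Wls deletion and -0.85 (SE 0.28) in the Rspo3 deletion, and the difference between the deletions was 1.46 (SE 0.40, limma adjusted p = 0.689). Among 6 ubiquitin precursors and activating enzymes only Uba6 was measured (-0.01).

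Promoter windows from RefSeq (build GRCm38.p6, 250 bases before to 50 after the start) existed for 35 of the 42 genes. The core of the antioxidant response element, bound by Nfe2l1 and its relatives (TGAC, any 3 bases, GC, either strand), lay in 5 of 35 windows' genes (14.3%: Psmb6, Psmc6, Psmd12, Psme4 and Psmd9), against 14% of 27025 genes. The core of the interferon-stimulated response element (GAAA, any 2 bases, GAAA, either strand) lay in 5 (14.3%: Psmb3, Psmd4, Psme1, Psmd9 and Psmg4), against 3.99%. Neither motif lay in the window of any of the 3 immunoproteasome genes. Over both lines Psmb3, Psmd4 and Psmg4 differed by -0.08, 0.03 and 0.23. The 2 motifs do not overlap in Psmd9, the 1 gene with both. A match is a description of the letters and not of a bound site. The windows are shown for Psme1 and Psmd9, which had an unadjusted p below 0.05 over both lines and hold the interferon motif, and for Psme2, the partner of Psme1, with the matched letters in capitals and 20 bases after the start.
Psme1 (chr14:55578244-55578513, plus strand): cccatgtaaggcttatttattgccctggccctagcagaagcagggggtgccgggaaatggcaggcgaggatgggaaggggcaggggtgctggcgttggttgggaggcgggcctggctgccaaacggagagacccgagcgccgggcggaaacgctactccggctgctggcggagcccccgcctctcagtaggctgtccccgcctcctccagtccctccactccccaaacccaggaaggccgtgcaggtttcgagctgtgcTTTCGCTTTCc
Psme2 (chr14:55591082-55591351, minus strand): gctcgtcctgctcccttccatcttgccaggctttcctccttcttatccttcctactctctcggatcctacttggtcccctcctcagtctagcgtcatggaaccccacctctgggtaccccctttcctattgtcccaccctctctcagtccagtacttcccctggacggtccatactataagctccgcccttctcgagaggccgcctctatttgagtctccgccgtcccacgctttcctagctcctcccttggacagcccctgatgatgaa
Psmd9 (chr5:123227940-123228209, plus strand): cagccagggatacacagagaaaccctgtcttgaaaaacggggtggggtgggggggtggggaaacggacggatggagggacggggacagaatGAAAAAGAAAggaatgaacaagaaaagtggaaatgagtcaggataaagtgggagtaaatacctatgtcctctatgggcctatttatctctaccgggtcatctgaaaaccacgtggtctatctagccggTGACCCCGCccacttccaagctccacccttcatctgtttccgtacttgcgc

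Psme1 carries the interferon motif on the reverse strand just after its start and Psmd9 carries it upstream, while neither motif occurs in either of the 2 windows that RefSeq gives for Psme2, of which 1 is shown. Psme1 and Psme2 lie on the same chromosome, and their windows are on opposite strands.

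Differences that passed the test lay between the mouse lines. The comparison set the mean of Evi-iECKO and Evi-WT against the mean of Rspo3-iECKO and Rspo3-WT. Limma called 2 of 42 genes at an adjusted p below 0.05 (4.76%, against 0.774% of all genes), Psmd2 and Psmg2, both lower in the Evi/Wls line (0.502% of all genes were called lower). At an unadjusted p below 0.05, 4 were higher and 6 lower (23.8%), against 15.3% of all genes (8.08% higher and 7.27% lower). Without overlap between the lines 1 gene was higher (Psma2) and 2 were lower (Psmd2 and Psme2), beside 1.99% and 1.88% of all genes. The brightest probes of Psmd2 and Psmc3ip passed the filter only through the Rspo3 line, so their direction was fixed by the filter. Psmd2 is in each of these counts of lower genes, and Psmc3ip in that at an unadjusted p below 0.05. The members' median was -0.05, beside 0.03 for all genes.

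Psmd2 read 4.48 and 4.15 in Evi-iECKO and 4.38, 4.15 and 4.21 in Evi-WT, against 5.58, 5.77 and 5.21 in Rspo3-iECKO and 5.68 and 5.66 in Rspo3-WT. No array of the Evi/Wls line reached the lowest array of the Rspo3 line. The fitted difference was -1.31 (SE 0.14, limma adjusted p = 0.00502). This Psmd2 probe was not well above background in the Evi/Wls line. It passed the filter only through the Rspo3 line, so its direction was fixed by the filter. The second Psmd2 probe, detected on 2 of the 5 arrays there, gave -0.63 (SE 0.19, limma adjusted p = 0.134 over all probes), its lines overlapped, and the mean of both probes gave -0.97.

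Psmg2 read 5.89 and 5.44 in Evi-iECKO and 5.66, 6.00 and 5.71 in Evi-WT, against 6.35, 5.96 and 6.08 in Rspo3-iECKO and 6.77 and 6.67 in Rspo3-WT. The lines overlapped at 1 array each, Evi-WT replicate 2 and Rspo3-iECKO replicate 2. The difference was -0.70 (SE 0.14, limma adjusted p = 0.0487), and leaving out any 1 of 9 of the 10 arrays ended the call (adjusted p up to 0.167), the exception being Evi-iECKO replicate 1. A second Psmg2 probe gave -0.24 (SE 0.15).

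Psme2 came next, at -0.59 (SE 0.15, limma adjusted p = 0.0835), with every array of the Evi/Wls line at 5.09 or lower and every array of the Rspo3 line at 5.15 or higher. Its partner Psme1 was at 0.34 (SE 0.12, limma adjusted p = 0.2004), a value that its second probe turned to -0.38 and median scaling of the arrays to -0.15. Psmb3, of the beta ring, was at -0.53 (SE 0.17) and Psmd3, of the lid, at -0.48 (SE 0.18). The second Psmd3 probe gave 0.01 (SE 0.15), and leaving out 1 array moved the -0.48 to between -0.71 (without Rspo3-WT replicate 1) and -0.26 (without Rspo3-WT replicate 2). Psmc6 was at 0.51 (SE 0.18) and Psma6 at 0.33 (SE 0.14), and with median scaling these were 0.12 and 0.02.

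By role, all 6 beta ring genes lay below zero between the lines, with a median of -0.24 (-0.71 with median scaling). The alpha ring had a median of 0.17 with 4 of 5 above zero, which median scaling turned to -0.30 with 1 of 5. With median scaling 19 of the 42 genes were called, all lower, and on the whole array 55 genes were called higher and 2855 lower, and the median over all genes moved to -0.13. Psmc3ip, no subunit, was also undetected on every array of the Evi/Wls line. It met the rule only through 4 arrays of the Rspo3 line, so its direction was fixed by the filter. With its Evi/Wls line values raised at least to the lowest detected signal of each array, the lines were 1.30-fold apart. That value makes no allowance for sampling error, and the test did not pass (limma adjusted p = 0.125).

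Probe by probe, 4 of 74 proteasome probes were called between the lines, all lower in the Evi/Wls line, against 1.32% of 24246 probes. Besides those of Psmd2 and Psmg2 these were the dimmer probes of Psmc5 (-0.99, SE 0.21) and Psmd8 (-0.99, SE 0.16), whose brightest probes gave -0.09 and -0.38. The called Psmd2 probe passed the filter only through the Rspo3 line, so its direction was fixed by the filter. For Psmb3, Psmb7, Psmd10 and Psme1 the probes differed in sign by over 0.5 between the lines.

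**Figure D5:**
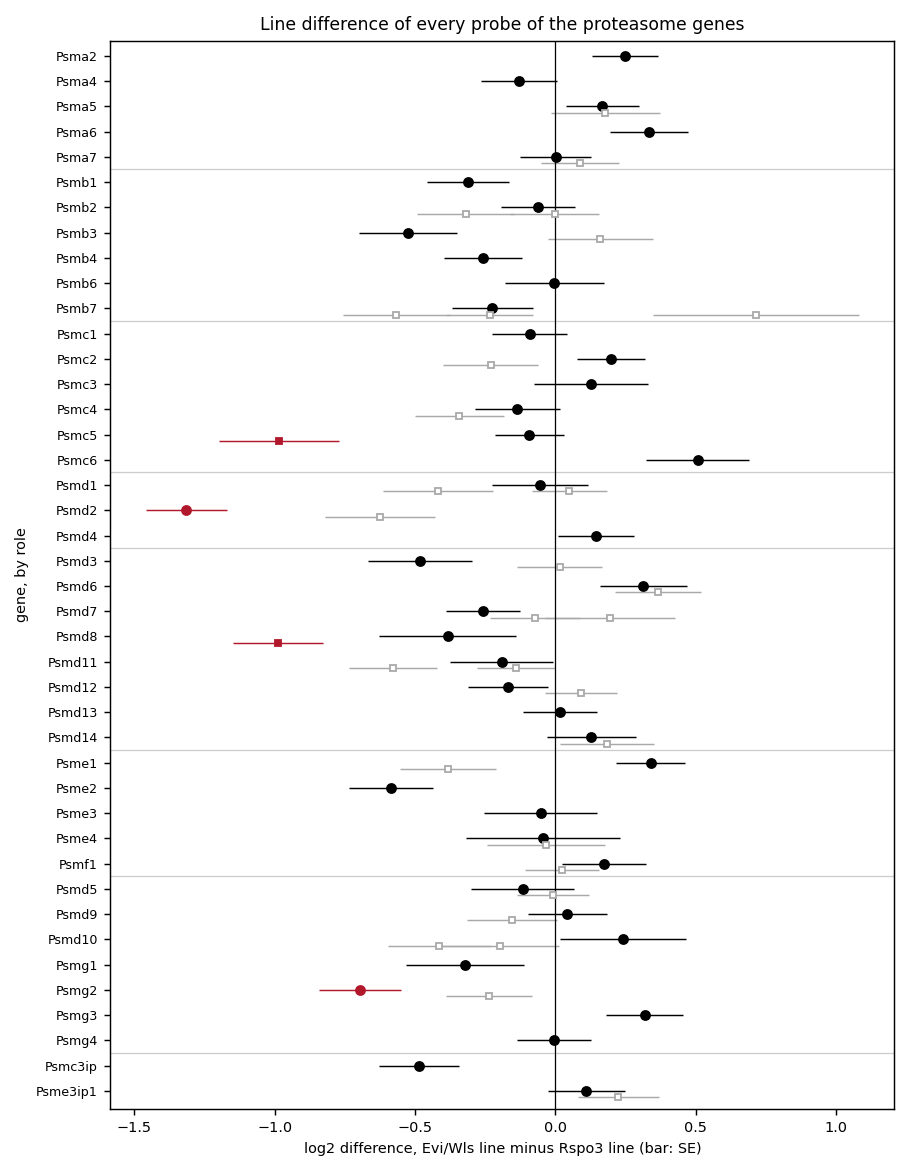
Log2 difference between the lines, Evi/Wls minus Rspo3, of each of the 74 proteasome probes past the filter (filled circles, the brightest probe of a gene; open squares, its other probes) with its SE (bars), by gene and role. The 4 probes in red, of Psmc5, Psmd2, Psmd8 and Psmg2, are called at an adjusted p below 0.05 over all probes, and all lie below zero.

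Other measures differed between the lines too. Of 14 endothelial markers 6 had an unadjusted p below 0.05, all lower in the Evi/Wls line (7.27% of all genes were), with a median of -0.26, and Tie1 was called (-0.69, limma adjusted p = 0.0464). The brightest probe of Erg, 1 of the 14, passed the filter only through the Rspo3 line, so its direction was fixed by the filter. Of 16 interferon-response genes 15 lay above zero, with 7 at an unadjusted p below 0.05, all higher (8.08% of all genes were). Limma called 1 of them higher at an adjusted p below 0.05. It also called 1 of 9 immunoproteasome and MHC class I loading genes higher. Over the whole array it called 44 of 16144 genes higher. Of 6 pericyte and smooth muscle markers 0 lay above zero, with a median of -0.29. The airway marker Scgb1a1 was called higher (2.19, limma adjusted p = 0.0458). The summed level of 3 of 5 airway epithelial markers was 297 to 612 in the Evi/Wls line and 87 to 364 in the Rspo3 line, which overlapped. The share of probes detected was lower in the Evi/Wls line, as given above, and the part of these in the line differences was not tested.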

How the data were processed

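The table that the authors deposited as non-normalized held a mean bead intensity for each probe on each array. Beside each intensity it held a detection p-value, per the file headers. A further deposited table held normalized intensity, by a method not given in the sources used here. RNA was amplified before labelling, per the labels' protocols. How the detection p-values arose, the scanner and the tamoxifen schedule are not stated there.

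R 4.3.3 with limma 3.58.1 was used, and Python 3.11.15 with matplotlib 3.10.9 for the figures. The neqc function (offset 16) corrected the background, quantile-normalized the arrays and gave log2 values. Of 46237 probes 30017 passed the filter (detection p below 0.05 on 2 or more arrays), and 24246 of these had a gene symbol, from the platform annotation updated through RefSeq. The brightest probe stood for each gene; of 74 proteasome probes 42 were used so, and 25 genes had several. All 10 arrays entered 1 model of the 4 group means (lmFit and eBayes). A probe undetected on every array of a line counted as not well above background there. The scripts were tested on simulated data. The number of arrays limited the precision.

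The genes, companion lists and tests were chosen with earlier results of these data known. Genes named with values were the catalytic core and activator genes, those past the threshold or, failing that, the 3 of smallest p in each direction of each comparison, the gene of smallest p in each role, ends of ranges and genes with discordant probes. Of other lists up to 4 genes with an unadjusted p below 0.05 were to be named; Pomp, Usp14, Nfe2l1 and Uba6 were named after their values were seen. Same-numbered arrays of a line were checked for pairing by the correlation of their deviations (-0.12 to 0.13, 1 of 4 above 0.1), so the numbers were not taken as pairs. Alternatives covered background correction, scaling, the authors' normalized values, filters, probe summary, array weights, the variance prior, a replicate block, fits to 1 line, the threshold and leaving out each array. Other normalizations and left-out arrays kept the probe of each gene; chosen again, up to 1 proteasome gene would have had another.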

Additional observations from a re-analysis of the deposited data

How the results depend on the processing

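For each deletion, their mean and their difference, 0 proteasome genes were called under every alternative run, with limma. Median scaling moved the members' median to 0.30 for the Rspo3 deletion, 0.12 for the mean of both, -0.37 for their difference and -0.47 between the lines, and the median over all genes to 0.11, 0.04, -0.13 and -0.13. Leaving out each array gave members' medians of -0.073 to 0.12 for the Evi/Wls deletion, 0.0028 to 0.09 for the Rspo3 deletion, -0.0059 to 0.08 for their mean and -0.10 to 0.02 for their difference. Between the lines, 19 genes were called with median scaling, and 1 each with no filter on dim probes, a stricter filter, array weights, a trended robust prior and a replicate block, and 1 to 2 when each array was left out, against the 2 reported. Psmd2 was called under each alternative run, at -0.40 to -1.44, while Psmg2 lost its call with no filter on dim probes, a stricter filter, array weights, the trended robust prior, the block and the mean of all probes, and without any array but Evi-iECKO replicate 1. Psma2 was called with the authors' normalized values, Psmd8 with the mean of all probes and Psmb3 without Evi-iECKO replicate 2. Over the whole array 125 genes were called between the lines. This count went down to 12 without Rspo3-WT replicate 2, 44 with no filter and 57 with the block. It went up to 2910 with median scaling, 316 without Evi-iECKO replicate 2 and 276 with the authors' values. With the trended robust prior it was 244, and without Evi-iECKO replicate 1 it was 242. For the Evi/Wls deletion 23 genes, none of the proteasome, were called without Evi-iECKO replicate 1, against 0. Between the lines 3 proteasome genes were called at an adjusted p below 0.1. Of the 125 calls over all genes 35.2% were higher, and with median scaling 1.89% of calls were. The block changed no call of a proteasome gene other than Psmg2. The cause of these shifts was not tested. Signal near background limits Psmd2, Psmc3ip and Psmg4, whose brightest probes were undetected on 2 or more arrays.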

Other observations

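Psmb5, the catalytic subunit that Psmb8 replaces, had a normalized log2 level of 4.05 to 4.23 on the 10 arrays and a lowest detection p of 0.349, and Psma3, a subunit of every alpha ring, 4.06 to 4.08 with a lowest detection p of 0.992. Psma1 read 4.08 to 4.23. Whether these probes report their transcripts was not tested.

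Of all pairs of arrays the 2 of Evi-iECKO correlated least over all genes (Pearson's r of 0.931 across genes, which are not independent replicates), with 0.954 over the 42 proteasome genes.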
